A study of Mus musculus with 30 samples.

Results

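Mature miRNAs of the imprinted Dlk1-Dio3 locus are described in heart and heart progenitor tissue of mouse embryos lacking Dgcr8 in part of the heart lineage. They are all mouse mature miRNAs of the array that the authors' tables place on the plus strand of chr12 with a start between 109.56 and 109.76 Mb. The locus was chosen with earlier results of these data known, and its miRNAs were taken by position alone. There were 109 of them among 1908 mouse mature miRNAs. They came from 56 hairpins, of which 53 had both arms on the array. By name 53 were 5p, 53 were 3p and 3 carried no arm (miR-432, miR-453 and miR-882). From the start of miR-770-5p to the end of miR-3072-3p they spanned 184.2 kb. By position 34 lay before miR-379 and 75 lay from miR-379 on.

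The study compared mutant embryos, Mef2c-AHF-Cre/+; Dgcr8 f/f, with embryos labelled wild-type, Dgcr8 f/+, all E9.5 embryos of 19 to 21 somite pairs. Tissue was either the anterior part of the second heart field (aSHF) or the right ventricle joined to the outflow tract (OFT-RV), and each array held a pool from at least 5 litters. The miRNA arrays numbered 4 mutant and 4 wild-type for aSHF and 3 mutant and 3 wild-type for OFT-RV. A floxed Dgcr8 allele was thus shared by all groups, and the labels give no Cre for the wild-type groups. Mef2c-AHF-Cre is known to act in aSHF cells and their descendants, so cells in which it was not active remain in a dissected pool. In such bulk pools fewer cells of a type and less RNA per cell cannot be told apart. The labels call arrays of a group biological replicates, and they do not say which embryos or litters went into which pool. Where pools share litters, p-values measure the spread between these arrays alone.

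Dgcr8 binds the hairpins of primary miRNA transcripts, and its partner Drosha then cuts the precursor hairpin out. Dicer cuts the precursor to a duplex, of which either arm (5p or 3p) can be loaded into an Argonaute protein. The miRNAs of the Dlk1-Dio3 locus are made from long non-coding transcripts, among them Meg3, Rian and Mirg, that in mice are expressed from the maternally inherited chromosome. The protein-coding genes Dlk1, Rtl1 and Dio3 are expressed from the paternally inherited one. Bases 2 to 8 of a mature miRNA, the seed, pair with its target mRNAs.

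Sequences are shown for the miRNAs with the smallest p-values in OFT-RV, and for 3 others that share a seed or most of their bases with one of them. They are mature sequences from RefSeq (GRCm38.p6), written 5′ to 3′, with the seed in capitals. For 99 of the 109 miRNAs RefSeq gave a mature sequence at exactly the authors' coordinates. The 3 that passed the adjusted test stand on the first lines.
miR-543-3p: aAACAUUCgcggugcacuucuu
miR-134-5p: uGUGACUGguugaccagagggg
miR-434-3p: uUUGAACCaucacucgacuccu
miR-667-3p: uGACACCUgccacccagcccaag
miR-379-5p: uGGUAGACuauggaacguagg
miR-382-5p: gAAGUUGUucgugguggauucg
miR-541-5p: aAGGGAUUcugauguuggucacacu
miR-485-3p: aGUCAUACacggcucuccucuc
miR-300-3p: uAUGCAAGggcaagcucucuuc
miR-540-3p: aGGUCAGAggucgauccugg
miR-495-3p: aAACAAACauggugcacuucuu
miR-381-3p: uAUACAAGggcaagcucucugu
miR-1193-5p: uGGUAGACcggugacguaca
miR-379-5p and miR-1193-5p carry the same seed, GGUAGAC. miR-495-3p differs from miR-543-3p at 4 of 22 positions (U6A, U7A, G9A and C10U, miR-543-3p base first, counted from the 5′ end), so both share the last 12 bases but not the whole seed. miR-381-3p differs from miR-300-3p at 3 of 22 positions (G4A, U21G and C22U). Among the 99 sequences there were 92 different seeds, and 7 of these were shared by a pair, 14 miRNAs in all. Since 9 pairs differed at no more than 4 positions, a probe for one could bind the other, which was not tested here.

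The values are log2 RMA values, on which a difference of 1 is a doubling. A miRNA was called detected in a group where it lay above the 95th percentile of the array's 95 background probe sets on every array of that group. That limit lay between 2.66 and 2.91 on aSHF arrays and between 0.98 and 1.08 on OFT-RV arrays. In aSHF 30 of the 109 miRNAs were detected in mutants or wild-type, where 14.4% of all mature miRNAs were. In OFT-RV 44 were detected, where 21.5% of all mature miRNAs were. Detected in both tissues were 30, in OFT-RV alone 14, in aSHF alone 0 and in neither 65. The tissues were normalized apart and have different limits, so these counts do not compare levels between tissues.

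Detected miRNAs were found on both sides of the locus. Of the 34 before miR-379, 10 were detected in aSHF and 12 in OFT-RV, and of the 75 from miR-379 on, 20 and 32 were. In OFT-RV, of 53 hairpins with both arms on the array, 10 had both arms detected (miR-154, miR-299a, miR-379, miR-409, miR-411, miR-431, miR-434, miR-485, miR-667 and miR-668). Another 9 had the 5p arm alone, 15 the 3p arm alone and 19 neither. In aSHF both arms were detected for miR-409 and miR-485, the 5p arm alone for 11, the 3p arm alone for 15 and neither for 25.

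The question of the comparison was which of these miRNAs changed in mutant tissue. In OFT-RV 3 of the 109 fell and none rose (limma, adjusted over all 1908 mature miRNAs, adjusted p under 0.05), where 0.367% of all mature miRNAs fell, 7 in number. The 3 that fell were miR-543-3p, miR-134-5p and miR-434-3p, and the other 4 were miR-378a-3p, miR-378b, miR-378c and miR-744-5p. Without wild-type replicate 1, 2 or 3 or mutant replicate 2, 1 of the 109 was called, miR-543-3p. A wider shift stood around them. At an unadjusted p under 0.05, 31 of the 109 were lower in mutants, where 5.61% of all mature miRNAs were, and 1 was higher, where 3.93% were. In 30 every mutant array lay below every wild-type array (7.08% of all mature miRNAs), and in 3 every mutant array lay above (5.87%).

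miR-543-3p (chr12:109717304-109717325) is cut from the 3p side of its hairpin, in the group from miR-379 on. Its OFT-RV values were 1.35, 1.12 and 1.27 in mutants, against 2.95, 3.02 and 3.23 in wild-type. Every mutant array lay far below every wild-type array and close to the detection limit. The mean was 1.24 ± 0.12 in mutants and 3.07 ± 0.15 in wild-type (SD, n = 3 each), a change of -1.82 (SE 0.11) or 3.54-fold lower (limma, adjusted p = 0.0014). It stayed called in each of 15 alternative settings, with an adjusted p between 0.000701 and 0.0461. Its 5p arm was detected in neither genotype, at 0.77, 0.94 and 0.90 in mutants and 1.10, 1.06 and 0.86 in wild-type OFT-RV. The near copy miR-495-3p read 1.42, 1.43 and 0.94 in mutants, against 1.94, 2.66 and 1.90 in wild-type. Its groups did not overlap either, with a change of -0.90 (SE 0.24, adjusted p = 0.215), which missed the threshold.

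miR-134-5p (chr12:109734145-109734166) is known from rat hippocampal neurons, where it limits the size of dendritic spines. Its OFT-RV values were 4.87, 4.60 and 4.41 in mutants, against 6.09, 6.04 and 6.36 in wild-type. Again the groups were well apart, here far above the detection limit in both genotypes. The change was -1.53 (SE 0.15), or 2.90-fold lower (limma, adjusted p = 0.00974). Without wild-type replicate 1, 2 or 3 its adjusted p was 0.0679, 0.0607 and 0.0643, and without mutant replicate 2 it was 0.0599 (range over all alternatives 0.00232 to 0.0679). The 3p arm of the same hairpin was not detected in OFT-RV.

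miR-434-3p (chr12:109594565-109594586) lies on the other side of the locus, among miRNAs made from a transcript antisense to Rtl1, with miR-431, miR-433, miR-127 and miR-136. Its OFT-RV values were 5.02, 5.10 and 4.89 in mutants, against 5.69, 5.89 and 6.08 in wild-type. The groups did not overlap, and the change of -0.88 (SE 0.12) was 1.84-fold lower (limma, adjusted p = 0.0499). This p stood just inside the threshold and was past it in 11 of 15 alternatives, among them each fit without 1 of the 6 arrays, where it lay between 0.0683 and 0.192. The 5p arm read 1.19, 1.43 and 0.86 in mutants and 1.75, 1.64 and 1.14 in wild-type, groups that overlapped.

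miR-667-3p was next by p. Its OFT-RV values were 2.87, 2.30 and 2.07 in mutants, against 3.72, 3.92 and 4.24 in wild-type. Every mutant array was lower, by 1.54 on average (SE 0.23, adjusted p = 0.0551), which missed the threshold. miR-379-5p, which gives the miR-379 to miR-410 cluster its name, read 5.83, 6.11 and 5.65 in mutants, against 6.75, 6.59 and 6.75 in wild-type. Its change of -0.84 (SE 0.13, adjusted p = 0.0727) also missed it, with no overlap of the groups. miR-382-5p read 5.01, 5.19 and 4.68 in mutants, against 6.06, 5.67 and 6.11 in wild-type (change -0.99, SE 0.17, adjusted p = 0.107). miR-1193-5p, with the seed of miR-379-5p, was not detected and had a change of 0.14 (SE 0.15).

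**Figure D1:**
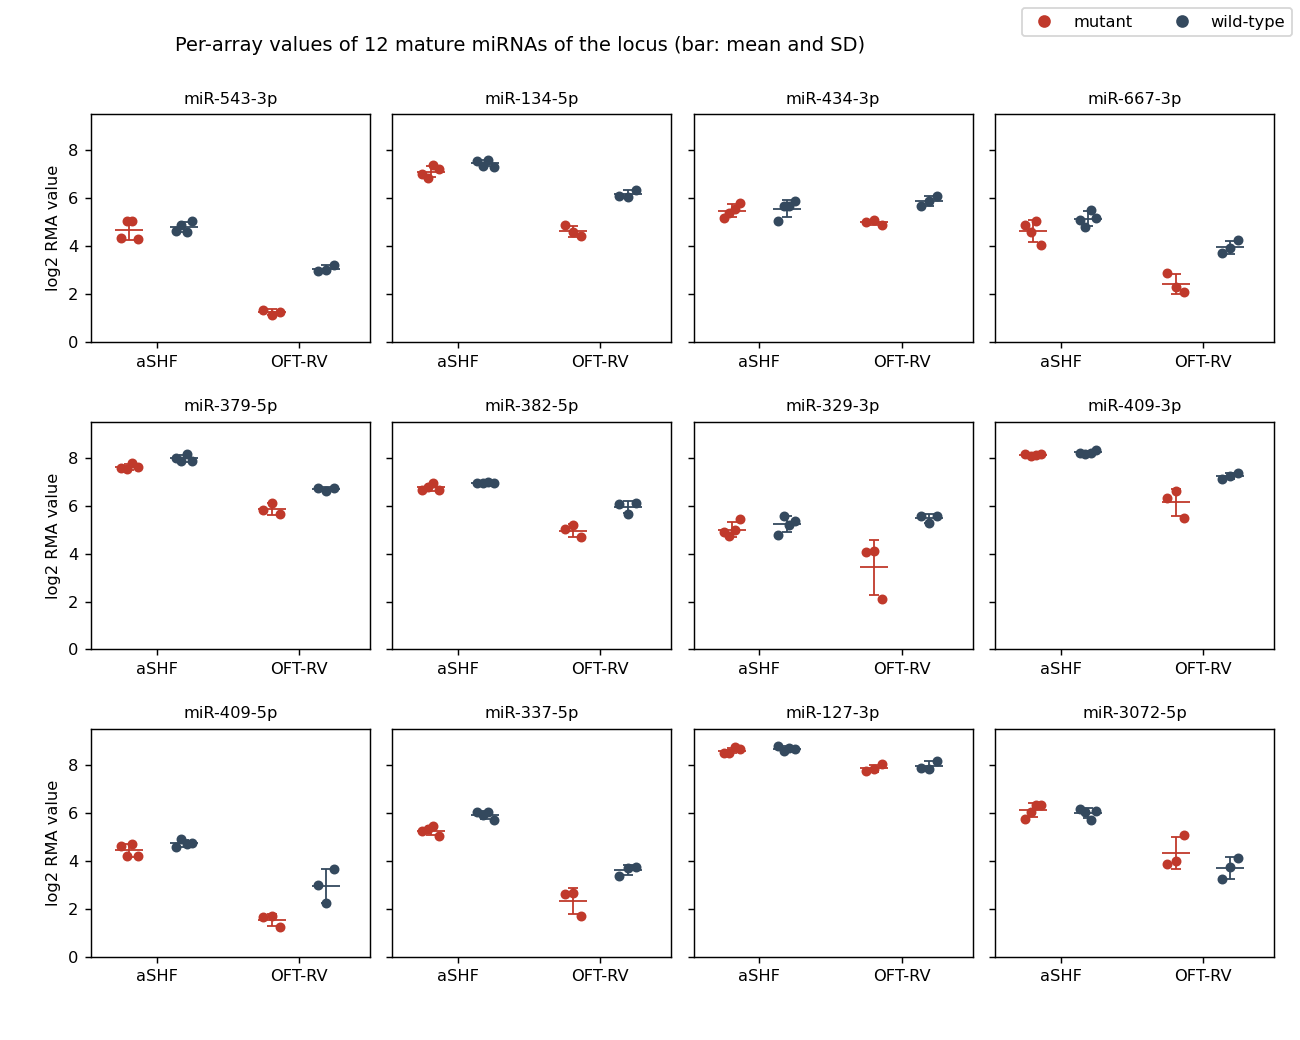
Log2 RMA value of 12 miRNAs of the locus on each miRNA array, mutant (red) left of wild-type (dark) in each tissue, with bars for mean and SD (aSHF n = 4, OFT-RV n = 3 per genotype). In OFT-RV the mutant arrays of miR-543-3p, miR-134-5p and miR-434-3p lie below all wild-type arrays, while miR-127-3p overlaps. Tissues were normalized apart, so heights are compared within a tissue.

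The widest change in OFT-RV was not among the called ones. miR-329-3p read 4.05, 4.11 and 2.11 in mutants, against 5.57, 5.26 and 5.57 in wild-type. Mutant replicate 3 stood far below the other mutant arrays, and the change of -2.05 had an SE of 0.51 (limma, adjusted p = 0.189). Without mutant replicate 3 the change was -1.39 with an adjusted p of 0.0103 (range over all alternatives 0.0103 to 0.468). Mutant replicate 3 was the lowest mutant array for 24 of the 31 miRNAs of the locus lower at an unadjusted p under 0.05, and for 49 of 76 such miRNAs elsewhere. Without it 28 of the 109 were lower at that p, 26 of them among the 31. Leaving out any other OFT-RV array gave 26 to 31.

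A change of -1 or lower was seen in 16 of the 109 miRNAs in OFT-RV, where 1.99% of all mature miRNAs had one. miR-485-3p read 1.58, 2.56 and 1.56 in mutants, against 3.44, 3.43 and 4.51 in wild-type (change -1.89, SE 0.37, adjusted p = 0.130). miR-300-3p read 2.68, 2.31 and 2.16 in mutants, against 4.54, 3.47 and 3.49 in wild-type (change -1.45, SE 0.30, adjusted p = 0.138). Neither passed the adjusted test, though the groups did not overlap in either. Both arms of miR-409 were lower on every mutant array without passing the adjusted test. Its 3p arm read 6.31, 6.60 and 5.50 in mutants, against 7.12, 7.24 and 7.34 in wild-type (change -1.10, SE 0.26, adjusted p = 0.189). Its 5p arm read 1.65, 1.69 and 1.23 in mutants, against 2.99, 2.24 and 3.65 in wild-type (change -1.44, SE 0.34, adjusted p = 0.182).

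miR-541-5p lay far above the detection limit in both genotypes of OFT-RV. It read 7.67, 7.75 and 7.75 in mutants, against 8.20, 8.21 and 8.54 in wild-type (change -0.60, SE 0.12, adjusted p = 0.125). miR-485-5p read 1.43, 1.65 and 1.02 in mutants, against 2.22, 2.40 and 2.72 in wild-type (change -1.08, SE 0.19, adjusted p = 0.107). In both, every mutant array lay below every wild-type array, without passing the adjusted test. miR-540-3p, before miR-379, had a change of -0.75 (SE 0.17, adjusted p = 0.167). miR-381-3p, the near copy of miR-300-3p, read 0.81, 1.11 and 1.29 in mutants, against 2.20, 2.44 and 1.39 in wild-type (change -0.94, SE 0.27, adjusted p = 0.272).

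Some miRNAs of the locus with high signal showed little change. miR-127-3p, which pairs fully with Rtl1 mRNA in mice, read 7.73, 7.82 and 8.04 in mutant OFT-RV, against 7.89, 7.82 and 8.19 in wild-type. The groups overlapped, and the change was -0.10 (SE 0.13, adjusted p = 0.888). miR-431-5p read 5.58, 5.87 and 5.65 in mutants, against 6.11, 5.78 and 5.84 in wild-type (change -0.21, SE 0.13, adjusted p = 0.720). The detected miRNA with the highest positive change was miR-3072-5p, of the last hairpin of the locus. It read 3.88, 3.99 and 5.08 in mutants, against 3.23, 3.75 and 4.12 in wild-type, and its change of 0.62 (SE 0.36, adjusted p = 0.699) did not pass the test.

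miR-654-3p, miR-1188-3p and miR-300-5p were the others with the smallest p among positive changes in OFT-RV. None of the 3 was detected. miR-654-3p read 0.80, 0.75 and 0.92 in mutants, against 0.62, 0.60 and 0.60 in wild-type (change 0.21, SE 0.09, adjusted p = 0.493). The changes of miR-1188-3p and miR-300-5p were 0.32 (SE 0.16) and 0.13 (SE 0.08).

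Taken over all 109 miRNAs, the median change in OFT-RV was -0.15, with 82 below 0, where 51.6% of all mature miRNAs were. The median of the other 1799 mature miRNAs was -0.00017. Most of the shift lay in miRNAs with signal. Of 32 detected on every OFT-RV array, 30 were below 0, where 52.9% of all miRNAs so detected were. In 22 of the 32 every mutant array lay below every wild-type array, where 23.0% of all miRNAs so detected did. The median change of the 32 was -0.94, and that of the 65 detected in neither genotype was -0.019. A miRNA near background cannot show a fall of this size. Another 12 miRNAs were detected in wild-type and not in mutants (5.14% of all mature miRNAs), and 0 the other way round (2.04%). Among the 12 were miR-380-5p, at 1.04, 0.70 and 0.97 in mutants and 1.53, 1.26 and 1.18 in wild-type, and miR-411-3p, at 1.45, 2.25 and 0.67 in mutants and 2.81, 2.88 and 2.25 in wild-type. Both missed the threshold (adjusted p = 0.348 and 0.341).

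**Figure D2:**
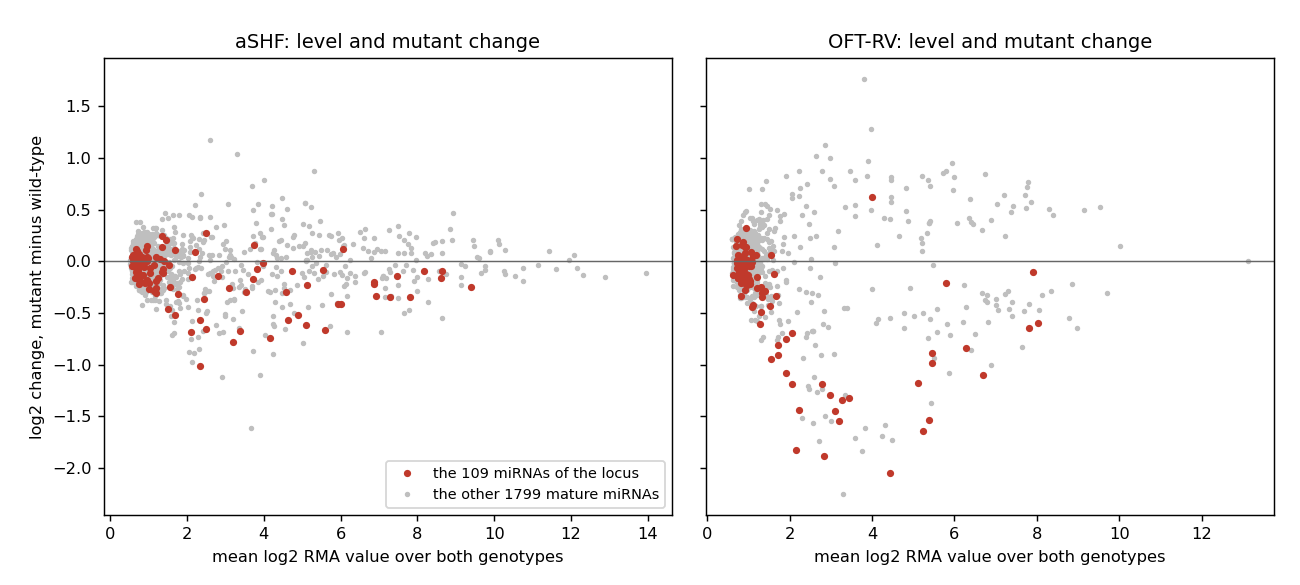
Mean log2 RMA value over both genotypes (x axis) against the log2 change, mutant minus wild-type (y axis), for 109 miRNAs of the locus (red) and 1799 others (grey), by tissue. Of the 32 miRNAs of the locus detected on every OFT-RV array, 30 lie below 0, whereas the other miRNAs spread to both sides.

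Along the locus the OFT-RV change was seen on both sides of the gap. Before miR-379, 7 of 34 miRNAs were lower at an unadjusted p under 0.05 and the median change was -0.081. From miR-379 on, 24 of 75 were, and the median change was -0.16. Of all mature miRNAs 5.61% were lower at that p, and the median change of the 1799 outside the locus was -0.00017. The sides differ in how many miRNAs were detected, and the difference between them was not tested. By RefSeq spans, 19 of the 99 miRNAs with equal coordinates lay inside Mirg, 19 inside Rtl1, 6 inside Rian and 2 inside Meg3, while 53 lay in no annotated gene. miR-543-3p and miR-134-5p were among these 53, and miR-434-3p lay inside the span of Rtl1.

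**Figure D3:**
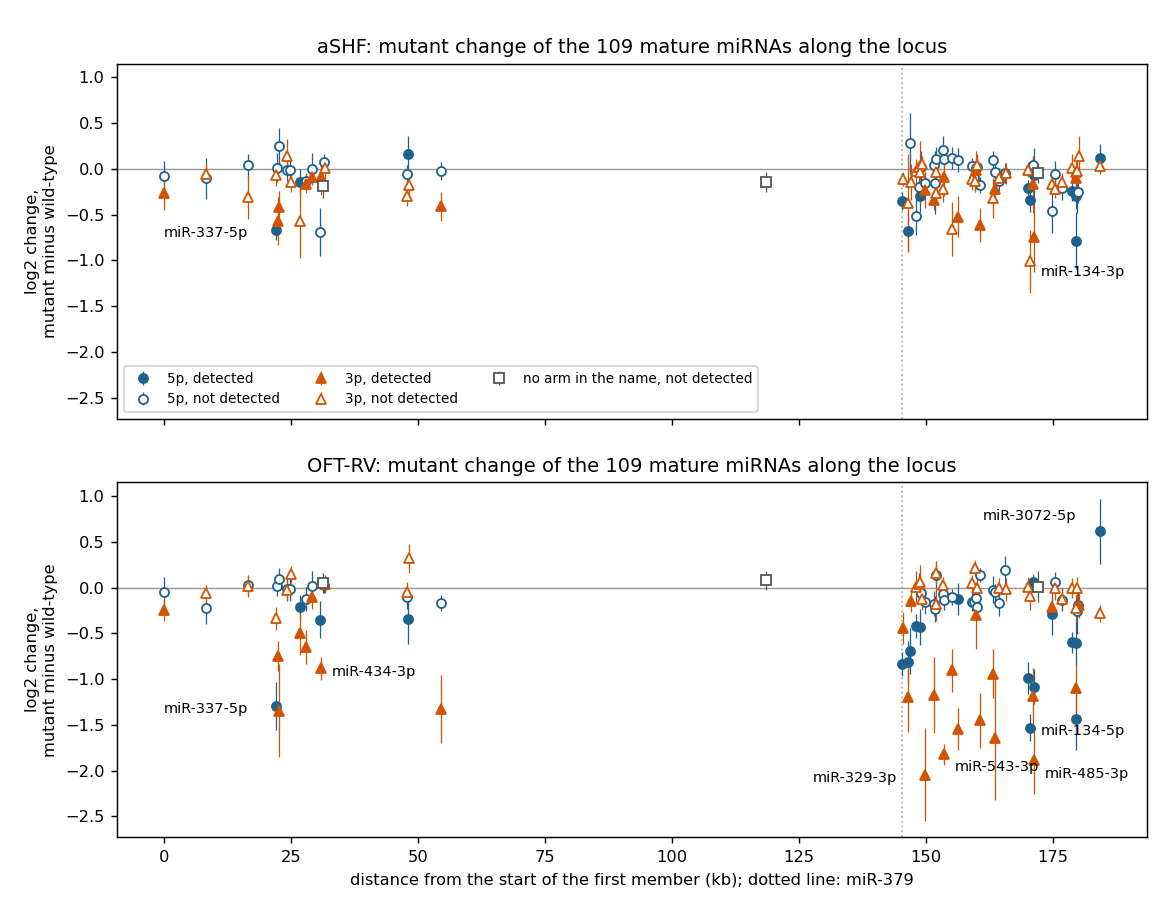
Log2 change, mutant minus wild-type, with its SE (y axis) of each of the 109 miRNAs against the distance from the start of miR-770-5p in kb (x axis), by tissue. Filled marks were detected in either genotype, and blue circles are 5p and orange triangles 3p arms. In OFT-RV filled marks reach -2.05 from miR-379 on and -1.34 before it, while open marks stay near 0.

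By arm, 11 of 53 5p miRNAs and 20 of 53 3p miRNAs were lower in OFT-RV at an unadjusted p under 0.05 (5.61% of all mature miRNAs). Fewer 5p than 3p miRNAs were detected there, 19 against 25. In aSHF 9 of 53 5p and 8 of 53 3p miRNAs were lower at that p (4.4%). The difference between arms was not tested. In OFT-RV both arms were lower for 5 hairpins (miR-337, miR-379, miR-409, miR-411 and miR-485), the 5p arm alone for 6 and the 3p arm alone for 15. miR-337 gives an example with unequal signal. Its 5p arm read 2.61, 2.66 and 1.71 in mutants, against 3.38, 3.71 and 3.76 in wild-type (change -1.29, SE 0.26, adjusted p = 0.133). Its 3p arm had a change of -0.33 (SE 0.12, adjusted p = 0.458) and was not detected.

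The opposite arms of the other named miRNAs follow. miR-379-3p was detected in wild-type OFT-RV alone and had a change of -0.44 there (SE 0.18). miR-667-5p was detected in both genotypes of OFT-RV and had a change of -0.13 (SE 0.17), against -1.54 for miR-667-3p. miR-1188-5p, also detected in both, had a change of -0.34 (SE 0.27). miR-329-5p, miR-382-3p, miR-654-5p and miR-3072-3p were not detected, with changes of -0.16 (SE 0.13), 0.01 (SE 0.10), -0.16 (SE 0.10) and -0.28 (SE 0.09). None of these 7 passed the adjusted test.

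In aSHF 0 of the 109 miRNAs passed the adjusted test, and neither did any other mature miRNA (limma, 0.0% of 1908, 4 arrays per genotype). At an unadjusted p under 0.05, 17 were lower, where 4.4% of all mature miRNAs were, and 0 were higher, where 1.57% were. That count of 17 was 10, 11 and 11 without mutant replicate 4, mutant replicate 2 or wild-type replicate 2. In 5 every mutant array lay below every wild-type array (2.78%), and in 0 above (1.15%). All 5 were detected on every aSHF array, among which 8.5% of miRNAs had groups apart in this way. Those 5 were miR-337-5p, miR-379-5p, miR-411-5p, miR-300-3p and miR-409-3p, and in OFT-RV too their groups did not overlap (0.734% of all mature miRNAs were apart and lower in both tissues).

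miR-337-5p had the smallest p in aSHF. It read 5.24, 5.32, 5.46 and 5.03 in mutants, against 6.04, 5.90, 6.06 and 5.71 in wild-type. Every mutant array was lower, by 0.66 on average (SE 0.12, limma, adjusted p = 0.170). miR-379-5p read 7.57, 7.53, 7.78 and 7.60 in mutants, against 7.99, 7.88, 8.14 and 7.86 in wild-type (change -0.35, SE 0.10, adjusted p = 0.474). miR-411-5p read 3.10, 3.11, 2.86 and 3.07 in mutants, against 3.56, 4.37, 3.64 and 3.28 in wild-type (change -0.68, SE 0.20, adjusted p = 0.521). In miR-300-3p, at 4.71, 4.97, 4.75 and 4.68 in mutants against 5.96, 4.996, 5.45 and 5.16 in wild-type, the nearest arrays were 0.03 apart (change -0.61, SE 0.19, adjusted p = 0.562). These differences had the same sign as in OFT-RV, and none of the 4 miRNAs passed the adjusted test in either tissue.

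The change of widest size in aSHF, -1.01 (SE 0.34, adjusted p = 0.659), was that of miR-134-3p. It read 2.15, 2.05, 2.01 and 1.15 in mutants, none above the limit, against 3.06, 2.88, 3.57 and 1.90 in wild-type, of which 3 were. Positive changes in aSHF were small. Those with the smallest p were miR-543-5p (0.11, SE 0.08), miR-666-5p (0.20, SE 0.16), miR-665-5p (0.25, SE 0.20) and miR-381-5p (0.10, SE 0.09), none above the detection limit on any array. Of their opposite arms, miR-665-3p was detected and had a change of -0.41 in aSHF (SE 0.18), while miR-666-3p (-0.21, SE 0.15) and miR-381-3p (-0.32, SE 0.22) were not detected. The median change of the 109 in aSHF was -0.10, against -0.0048 for the other 1799, and 81 were below 0, where 52.7% of all mature miRNAs were. Of 28 detected on every aSHF array, 26 were below 0, where 53.8% of all miRNAs so detected were, and their median was -0.24. In wild-type but not in mutants 2 miRNAs of the locus were detected, miR-770-3p and miR-412-5p (0.996% of all mature miRNAs), and 0 the other way round (0.472%).

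The difference of the mutant change between the tissues was tested in a fit of all 4 groups. For 2 of the 109 it passed (limma, adjusted over 1908), where 0.157% of all mature miRNAs did, and for both the fall was deeper in OFT-RV. The tissues were normalized apart, so a difference of scale between them would enter this difference. Settings other than leaving out an array included both tissues normalized together. They gave -2.33 to -1.73 for miR-543-3p and -1.19 to -1.02 for miR-134-5p. miR-543-3p read 4.34, 5.07, 5.06 and 4.30 in mutant aSHF, against 4.62, 4.88, 4.60 and 5.03 in wild-type aSHF. These groups overlapped, with a change of -0.09 (SE 0.20), and the OFT-RV change minus the aSHF change was -1.73 (SE 0.27, adjusted p = 0.0200). miR-134-5p read 7.03, 6.84, 7.38 and 7.21 in mutant aSHF, against 7.56, 7.36, 7.58 and 7.33 in wild-type aSHF (change -0.34, SE 0.13). Its difference between tissues was -1.19 (SE 0.20, adjusted p = 0.0286). Without aSHF wild-type replicate 1 or OFT-RV wild-type replicate 1, 2 or 3 neither difference passed. Without aSHF wild-type replicate 2 or 4, aSHF mutant replicate 1, 3 or 4, or OFT-RV mutant replicate 3, 1 of the 109 passed, miR-543-3p.

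At an unadjusted p under 0.05 the change was lower in OFT-RV than in aSHF for 16 miRNAs of the locus (2.94% of all mature miRNAs) and higher for 3 (3.09%). The next by p were miR-382-5p with a difference of -0.78 (SE 0.19, adjusted p = 0.202), miR-409-3p with -0.998 (SE 0.26, adjusted p = 0.291), miR-329-3p with -1.82 (SE 0.54, adjusted p = 0.481) and miR-409-5p with -1.14 (SE 0.36, adjusted p = 0.50). None of these passed. In aSHF miR-409-3p had groups just apart, at 8.16, 8.07, 8.12 and 8.17 in mutants and 8.18, 8.17, 8.21 and 8.33 in wild-type. miR-434-3p, at 5.18, 5.37, 5.57 and 5.82 in mutants and 5.06, 5.68, 5.67 and 5.88 in wild-type aSHF, overlapped there, and its difference of -0.80 (SE 0.26, adjusted p = 0.539) did not pass.

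**Figure D4:**
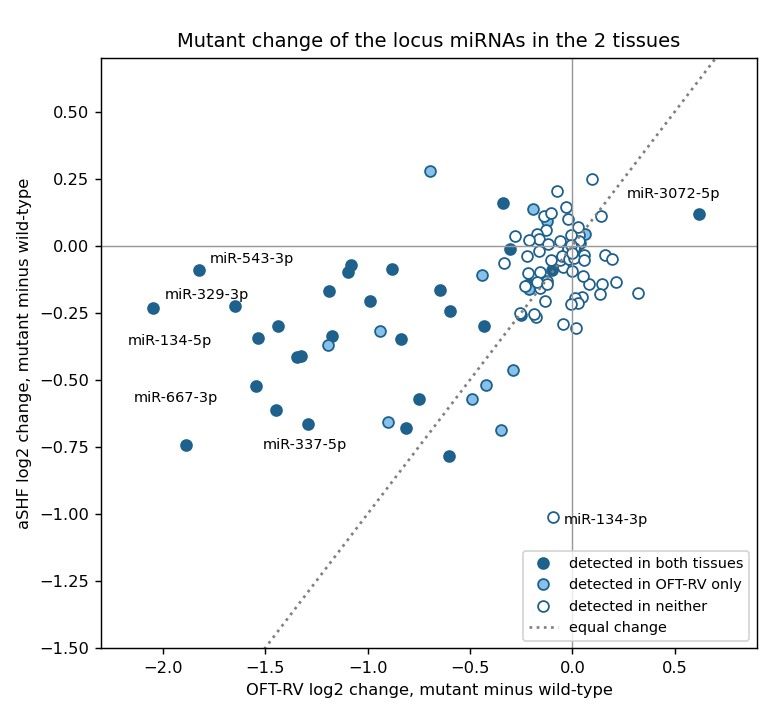
Log2 change, mutant minus wild-type, in OFT-RV (x axis) and in aSHF (y axis) for each of the 109 miRNAs, filled by the tissues in which it was detected. The dotted line marks equal change, and most filled points below 0 in OFT-RV lie above that line, with miR-543-3p at -1.82 in OFT-RV and -0.09 in aSHF.

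Lower in both tissues at an unadjusted p under 0.05 were 13 miRNAs of the locus, where 1.42% of all mature miRNAs were. Across the 109 the changes in the tissues had a Pearson r of 0.50, and across the 1799 other miRNAs an r of 0.31. These are descriptions, since miRNAs of a locus share their arrays, their pools and in part their transcripts.

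Other miRNA groups on the same arrays are given for scale. In OFT-RV 14 miRNAs with the names of the miR-17-92 cluster, a growth-promoting cluster, had a median change of -0.30. The 14 include miR-19b-2-5p and miR-92a-2-5p, which come from gene copies outside that cluster. The 17 muscle miRNAs (miR-1, miR-133, miR-206, miR-208 and miR-499) had one of -0.10 and 23 let-7 miRNAs one of 0.052. Detected in OFT-RV were 9 of the 14, 4 of the 17 and 6 of the 23, so the last 2 medians rest mostly on undetected miRNAs. At an unadjusted p under 0.05, 2, 3 and 2 of these lists were lower (5.61% of all mature miRNAs). In the same order 1, 0 and 0 were higher (3.93%). A list of 13 miRNAs that bypass the Microprocessor or are cut from introns had a median of 0.33 in OFT-RV, where 7 were detected. Of the 13, 4 were higher and 0 lower there at an unadjusted p under 0.05 (3.93% and 5.61% of all mature miRNAs). In aSHF the median of the 13 was 0.044, with 0 higher and 0 lower at that p (1.57% and 4.4%). No member of these 4 lists passed the adjusted test in either tissue. Outside the locus, the miRNAs whose 14-array pattern was most like the mean of the 3 called ones, each tissue centred, were miR-378b (Pearson r 0.945), miR-92a-1-5p (0.934), miR-208a-5p (0.878), miR-351-5p (0.873) and miR-501-3p (0.872).

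Probe sets for the precursor hairpins of the locus numbered 64 on the same arrays. None passed the adjusted test in OFT-RV or aSHF (limma, 0.0% of 1255 in each). At an unadjusted p under 0.05, 8 were lower and 2 higher in OFT-RV (2.79% and 3.27% of all precursors), and 5 were lower and 0 higher in aSHF (3.27% and 1.99%). Their median change was -0.026 in OFT-RV and -0.050 in aSHF, with 1 and 0 of them above the detection limit on every array. On the separate mRNA arrays, with 4 mutant and 4 wild-type pools per tissue, 41 primary miRNA genes of the locus were measured. There 23 rose in OFT-RV, where 0.432% of all genes rose and 0.446% changed either way. In aSHF 11 rose (0.178%), and none fell in either tissue. Of the primary genes of the 3 called miRNAs, Mir543 rose in OFT-RV (0.73, SE 0.10, adjusted p = 0.00583) and in aSHF (0.61, SE 0.07, adjusted p = 0.00436), where miR-543-3p itself had a change of -0.09. Mir134 rose in OFT-RV (0.56, SE 0.09, adjusted p = 0.0105) and missed the threshold in aSHF (0.47, SE 0.08, adjusted p = 0.0726). Mir434 missed it in OFT-RV (0.23, SE 0.07, adjusted p = 0.427) and rose in aSHF (0.72, SE 0.11, adjusted p = 0.0369). Of the 23, 14 had a mature miRNA lower at an unadjusted p under 0.05 in OFT-RV, and of the 11, 4 had one in aSHF. Many hairpins of the locus had one. Of all 53 with both arms on the array, both arms were lower in OFT-RV for 5, the 5p arm alone for 6 and the 3p arm alone for 15. In aSHF these counts were 1, 8 and 7. A link between primary and mature change was not tested.

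Dgcr8, the targeted gene, was lower on the mRNA arrays of OFT-RV, at 7.70 ± 0.07 in mutants and 8.11 ± 0.11 in wild-type (SD, n = 4 each, change -0.41, limma, adjusted p = 0.00753). In aSHF it was 10.22 ± 0.05 in mutants and 10.34 ± 0.06 in wild-type (change -0.12, adjusted p = 0.979), which did not pass. No source used here says whether the Dgcr8 probes lie in the floxed exon. Markers of other cells did not pass the adjusted test on the miRNA arrays of either tissue. The 2 erythroid (miR-144-3p and miR-451a) and 3 neural miRNAs (miR-9 and miR-124) on the array were detected in neither tissue. Of the 6 epithelial ones 3 were detected in aSHF and 2 in OFT-RV. One of them, miR-205-5p, averaged 7.65 in mutant and 7.40 in wild-type aSHF (change 0.25, SE 0.08, limma, unadjusted p = 0.0148, adjusted p = 0.628). In OFT-RV it averaged 1.66 in mutants and 1.35 in wild-type. The other epithelial miRNA detected there, miR-200c-3p, averaged 1.93 in mutants and 2.42 in wild-type (change -0.49, SE 0.53). Of the 6 epithelial miRNAs, 5 had a change below 0 in OFT-RV and 2 in aSHF (51.6% and 52.7% of all mature miRNAs). miR-126a-3p, an endothelial miRNA, averaged 7.37 in mutant and 7.60 in wild-type aSHF (change -0.23, SE 0.10, adjusted p = 0.809), and 7.34 in mutant and 7.10 in wild-type OFT-RV (change 0.25, SE 0.19). In aSHF the array means of the epithelial list ran between 3.93 and 4.12 in mutants, against 3.85 and 4.06 in wild-type, and those of the 2 endothelial miRNAs between 3.88 and 4.13 in mutants, against 4.02 and 4.14 in wild-type. Array means of the epithelial list ran between 1.02 and 1.24 in mutant OFT-RV, against 1.09 and 1.49 in wild-type. Those of the 2 endothelial miRNAs ran between 3.97 and 4.31 in mutant OFT-RV, against 3.90 and 4.09 in wild-type. Their part in the results was not tested. Cardiomyocyte genes were high in OFT-RV, with Myl7 at 13.33 in mutants and 13.34 in wild-type, and Isl1, a gene of heart progenitors, averaged 10.38 in mutant and 10.40 in wild-type aSHF.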

How the data were processed

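Affymetrix miRNA arrays (14) and mRNA arrays (16) of pooled mouse embryonic tissue were used. The deposited array values are log2 intensities after RMA. The submitters' processing notes name oligo for this step, and no version was found. Array distributions matched within each tissue and not between them, so levels were compared within tissues. The authors' deposited tables gave, per the file headers, probe names, locations, log2 changes, linear folds, p-values, adjusted p-values and test scores (moderated t and log odds), from a tool that is not stated, and served to name probe sets. By the adjusted p-values of the authors' deposited table, 4 of the 109 miRNAs passed an adjusted p of 0.05 in OFT-RV and 0 in aSHF. Those 4 were the 3 called here and miR-667-3p. The authors' table held 3163 rows, precursors included, whereas the test here was adjusted over 1908 mature miRNAs, so the counts rest on unlike sets. A further 30 columns of values, in 4 tables, matched no sample label and were not used. The mRNA probe sets were named by matching mean and change to the authors' tables within 1e-06, which left 20842 genes.

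Genotypes were compared tissue by tissue in R 4.3.3 with limma 3.58.1 (two-sided moderated test, genotype being the only term). Adjustment followed Benjamini and Hochberg, over 1908 mature miRNAs, 1255 precursors or all genes. SE is the moderated standard error and SD the spread between arrays. The fits were tested on simulated data. The small number of arrays limits the precision.

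The miRNAs, comparison lists and markers were chosen with earlier results of these data known. Named with values are the called miRNAs, or per direction the 4 of smallest p where fewer were called, the 6 with the smallest p for the difference between tissues, and their opposite arms. miR-127-3p, miR-431-5p, both arms of miR-485, miR-541-5p, miR-540-3p, miR-380-5p and miR-495-3p were named after their values were seen, as were Myl7, Isl1, the marker miRNAs with values and the primary genes. Sequences are those of the miRNAs with the smallest p in OFT-RV that have one, and of near copies or seed partners. Replicate numbers are shared by genotypes, but same-numbered arrays deviated together by correlations of only -0.12 to 0.31, so no pairing was used. Alternatives covered scaling, filters, the variance model, array weights, a replicate block, detection limits and leaving out each array. Scaling to the bright spike-ins, detection limits matched on GC count and every alternative for the count at an unadjusted p under 0.05 were chosen after seeing the data.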

Additional observations from a re-analysis of the deposited data

Results flagged for a closer look

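In 42 groups of 4 aSHF arrays tested for an array far from the others, 3 held one, where chance flags about 5%. miR-665-5p stood at 1.54 on wild-type replicate 4, with the other wild-type arrays between 1.08 and 1.13, and it was not detected in either genotype. miR-411-5p stood at 2.86 on mutant replicate 3, with the other mutant arrays between 3.07 and 3.11. miR-654-3p stood at 0.51 on mutant replicate 3, with the other mutant arrays between 0.75 and 0.79, below the detection limit throughout. The mutant change differed between the tissues for miR-543-3p (OFT-RV minus aSHF -1.73) and miR-134-5p (-1.19), by the test of the difference itself.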

How the results depend on the processing

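In OFT-RV the count of 3 called miRNAs became 6 with arrays shifted to equal medians of the bright spike-ins and 1 with a trended and robust variance, and leaving out 1 array gave 1 to 4, with 1 without wild-type replicate 1, 2 or 3 or mutant replicate 2. miR-667-3p joined the called in 6 of 15 alternatives and miR-382-5p with the bright spike-in shift. The OFT-RV count of 31 lower at an unadjusted p under 0.05 lay between 26 and 33. The aSHF count of 17 became 11 with a shift to equal medians of all spike-ins and 10 with quantile normalization. It was 8 among miRNAs with a mean above the mean detection limit, where fewer were tested. Leaving out 1 array gave 10 to 21. No miRNA of the locus was called in aSHF under any of 17 alternatives. Among miRNAs whose mean over both genotypes lay above the mean detection limit, the median change was -0.24 in aSHF and -0.60 in OFT-RV. This filter is not the detection rule used above. Under that rule 2 of 30 miRNAs in aSHF and 12 of 44 in OFT-RV were detected through wild-type alone. Over all 109 miRNAs, leaving out 1 array gave a median change of -0.16 to -0.11 in OFT-RV. With the shift to all spike-ins 69 of the 109 were below 0 in aSHF, with a median of -0.056 against 0.040 elsewhere. With the replicate block, which the numbers do not support as a pairing, 3 miRNAs were called in OFT-RV (2 of them the same), 0 in aSHF and 0 for the difference between tissues. That last count lay between 0 and 3 when 1 array was left out. The aSHF change of miR-543-3p turned to 0.026 without mutant replicate 1 and 0.040 without mutant replicate 4, in a range of -0.22 to 0.040 with 1 array left out. With the highest background probe set as the limit, 14 miRNAs were detected in aSHF and 28 in OFT-RV, and in OFT-RV 27 with the background median plus 1 and 24 with a limit matched on length and GC count. Over the 4 alternatives for detection the count ran from 24 to 57 in OFT-RV, against 44 in the main setting. In aSHF it ran from 14 to 36, against 30. The causes of these shifts were not tested, apart from the smaller number of miRNAs or arrays where that is named.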
